A study of Mus musculus with 8 samples.

Results

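The genes of myelin and of the oligodendrocyte lineage described here are Mbp, Mog, Mag, Mobp, Mal, Olig1, Olig2, Cldn11 and Sox10, 9 of the 27962 gene names on the array. They were measured in the mouse brain in a study of the neuropeptide PACAP38 in stroke, where stroke was modelled by a permanent block of the middle cerebral artery (PMCAO). Every non-control probe that the array names for one of these 9 genes was taken. This gave 17 of the 41174 probes on the array (26 of 43379 spots). The animals were male C57BL/6J mice of 8 to 12 weeks. They had either a sham operation or PMCAO of the right side by an intraluminal filament, and directly afterwards 1 µL of saline or 1 µL with 1 pmol of PACAP38 was injected into the cerebral ventricle from the left side. The 8 groups were sham with saline, sham with PACAP38, PMCAO with saline and PMCAO with PACAP38, each at 6 h and at 24 h. RNA came from the right (ipsilateral) hemisphere without olfactory bulb and cerebellum, so infarct core, penumbra and undamaged tissue were in 1 extract, and RNA of 3 mice was pooled for each group. PMCAO mice were chosen by the study for a neurological grade of 1 or 2. Each of the 4 comparisons of PACAP38 with saline was hybridized to 2 two-colour arrays with the dyes swapped, on RNA of the same pools per the study's methods, so that each group was 1 replicate and the 2 arrays measured technical error.

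Oligodendrocytes wrap axons in myelin, a stack of compacted membrane that speeds conduction and that is built from a few very abundant proteins and from lipids rich in galactosylceramide. Their progenitors commit to the lineage under the basic helix-loop-helix factors Olig1 and Olig2 and the HMG-box factor Sox10, which then acts on the promoters of myelin genes. In the adult brain the cells lie mostly in white matter, and both oligodendrocytes and myelinated axons are known to be vulnerable to ischemia.

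The array readings for these genes were strong. In 15 of the 17 probes the signal was well above background in all 16 channels, and none was saturated. The exceptions were a Sox10 probe (A_52_P192625, 12 of 16 channels) and an Olig2 probe (A_51_P367451, 2 of 16 channels). These are counted, and their values are given where they enter a count, but nothing is concluded about Sox10 or Olig2 from them. Levels below are log2 of the processed signal relative to the 75th percentile of the same channel, and they are compared between pools for one probe but not between probes. Because whole tissue was measured, fewer oligodendrocytes and less RNA per oligodendrocyte cannot be told apart.

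Several features of the arrays bear on all values. After the ratios were turned to PACAP38 over saline, the 2 dye-swap arrays of a comparison correlated at -0.15 for sham 6 h, -0.14 for PMCAO 6 h, -0.42 for sham 24 h and 0.05 for PMCAO 24 h over all probes, so most of the spread in a single ratio was not shared by its swap. The directions were taken from the dyes in the labels. The sham 6 h array of replicate 2, with PACAP38 in Cy3, stood apart with 10.7% outlier spots, against 0.323% to 3.09% on the other 7 arrays. Differences between PMCAO and sham that used it had a standard deviation over all probes of 1.36 (saline) and 1.31 (PACAP38) on the log2 scale, against 0.554 to 0.671 in the other 6, and they are given below with and without it. The PMCAO over sham differences of the 2 dyes correlated at 0.37 (saline 6 h), 0.10 (PACAP38 6 h), 0.52 (saline 24 h) and 0.32 (PACAP38 24 h). The 6 h and the 24 h arrays were on separate slides, read on different scanners and with different versions of the extraction software, so time cannot be told apart from slide, scanner or software version.

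Mobp encodes myelin-associated oligodendrocytic basic protein, a small cytoplasmic protein of compact central myelin. Its 3 probes are shown because they read different stretches of the locus and gave different values below. The array design linked the first and second below to RefSeq Mobp transcripts and the third to a cDNA that is not a RefSeq entry. The first 30 of the 60 bases of each probe are printed in lower case, with mm7 positions as the array files give them.
A_51_P291224, chr9:119863783-119863842: acccttcaccttcctcaactccaagcgtga
A_52_P267600, chr9:119871554-119871613: atggaaatggggaaaaaggaaacaagagag
A_52_P384465, chr9:119877278-119877337: cgtcactgagtcgcgttgtaatcaccacgt

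The promoter window of Mobp held more copies of a Sox-type hexamer than any other window in the RefSeq promoter table of GRCm38.p6. The hexamer ACAAAG, or CTTTGT on the other strand, is a core sequence bound by Sox proteins, and it was counted on both strands in the 250 bases before each annotated start. Those of Mobp (chr9:120149492-120149741, plus strand) are printed with the matches in capitals.
Mobp: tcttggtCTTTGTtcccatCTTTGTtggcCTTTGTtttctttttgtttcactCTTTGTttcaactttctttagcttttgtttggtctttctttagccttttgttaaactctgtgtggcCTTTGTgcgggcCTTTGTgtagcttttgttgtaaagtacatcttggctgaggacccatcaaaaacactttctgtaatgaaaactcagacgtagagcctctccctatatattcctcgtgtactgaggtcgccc
All 6 matches lay on the same strand and none overlapped. Among 32851 windows, 27443 held no match and 16.5% held at least 1, 5 windows held 4, 1 held 5 and Mobp was the 1 window with 6. Of the other member genes in the table, Mag had 1, 1 and 0 matches in its 3 windows, and Mal, Cldn11, Olig2 and Mog had 0. The E-box CANNTG, the general recognition sequence of basic helix-loop-helix factors such as Olig1 and Olig2, had matches in 66.2% of all windows, in 2 of the 3 Mag windows (1 and 2 matches) and in none of the other 5 member windows. Mbp, Olig1 and Sox10 had no entry. These matches are a description of the letters in the window and not of binding.

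**Figure D1:**
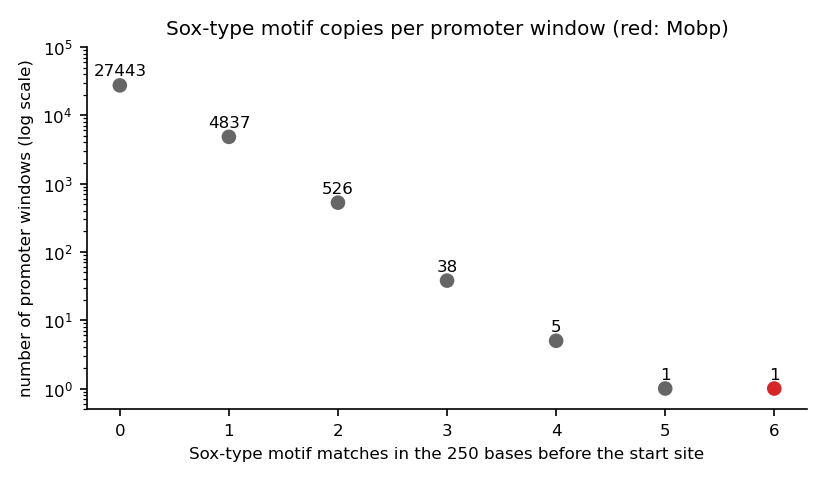
Number of promoter windows (log axis) by the number of Sox-type hexamers they hold, over all 32851 windows of 250 bases before a start. Most windows (27443) hold none and the window of Mobp is the 1 with 6.

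Transcript signals of most member probes lay in a narrow range over the 4 pools of 24 h. For 15 of the 17 probes the highest and the lowest pool of 24 h lay within 1.5-fold. The share of all probes within this range was not counted, so the members cannot be called steadier than the array. The exceptions were the Mobp probes A_52_P384465 and A_52_P267600. For A_52_P384465, the brightest, the level was 4.08 in sham with saline, 4.03 in sham with PACAP38, 4.26 in PMCAO with saline and 3.47 in PMCAO with PACAP38. At 6 h the same probe stood at 4.16, 4.29, 3.80 and 3.90 in the same order, so the PMCAO pool given PACAP38 for 24 h was the lowest of all 8. The brightest probe of Mbp, the major basic protein that holds the cytoplasmic faces of compact myelin together, read 5.91, 5.87, 6.20 and 5.72 at 24 h and 6.10, 6.08, 5.98 and 6.05 at 6 h. For Mag, an adhesion molecule of the innermost myelin layer facing the axon, the brightest probe read 4.78, 4.77, 4.79 and 4.45 at 24 h and 4.89, 4.81, 5.23 and 5.23 at 6 h. In each of these genes the PMCAO pool with PACAP38 was lowest at 24 h. At 6 h the lowest pool was PMCAO with saline for Mobp and Mbp and sham with PACAP38 for Mag.

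Over all 8 pools the range of the other members varied from gene to gene. Cldn11, which forms the tight junctions of central myelin, lay between 2.94 and 3.49 over the 8 pools, and the brighter probe of Mal, a proteolipid of myelin membrane domains, between 1.88 and 2.93. Its PMCAO levels at 6 h (2.76 with saline and 2.93 with PACAP38) came from 1 dye each, while its sham levels averaged 2 dyes. In the same dye PMCAO over sham at 6 h read -0.06 with PACAP38, and 1.66 with saline through the array that stood apart. The second Mal probe (A_52_P562661) lay between 1.82 and 2.37, with some levels from 1 dye. Mog, a glycoprotein on the outer face of the sheath, lay between -1.80 and -0.70. Among the lineage factors Olig1 lay between 2.50 and 3.17, the brighter Olig2 probe between -0.85 and 0.00, and the brighter Sox10 probe between 0.58 and 1.68. With 1 probe per gene, the PMCAO pool with PACAP38 was the lowest of the 24 h pools in 7 of 9 genes, and over all member probes in 11 of 17. The same pool was lowest in 14.3% of all probes on the array. Olig1 was lowest in PMCAO with saline, and Olig2 was highest in PMCAO with PACAP38.

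**Figure D2:**
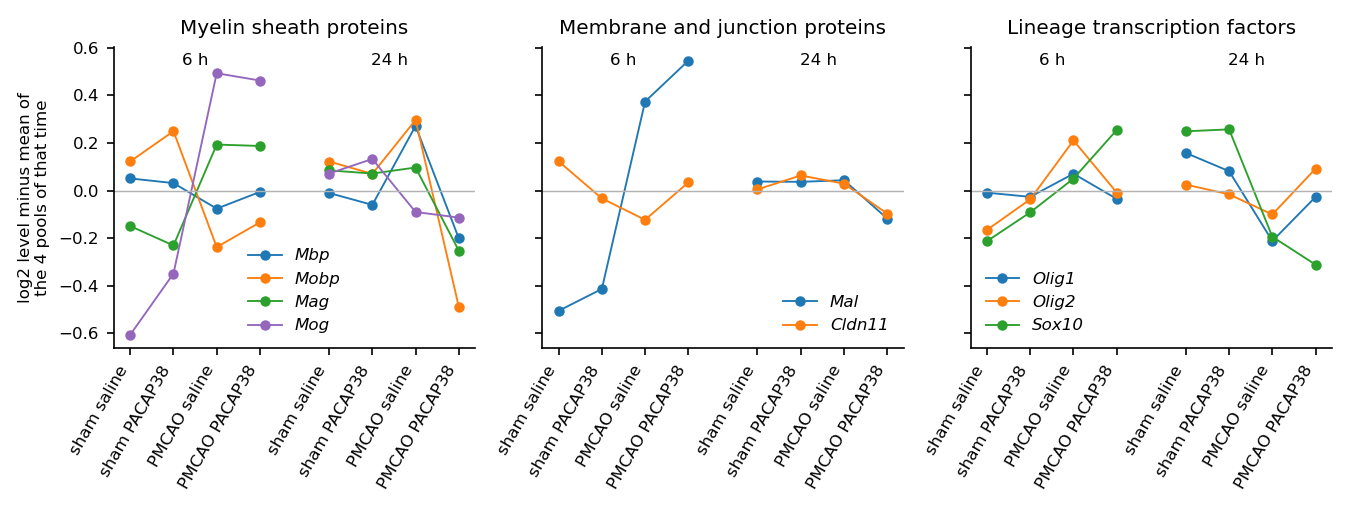
Brightest probe of each of the 9 genes in the 8 pools (points), as log2 level minus the mean of the 4 pools of the same time, in panels by role. The Mobp points of PMCAO at 24 h stand for levels of 4.26 with saline and 3.47 with PACAP38, while the other 8 genes span less than 1.5-fold over the 24 h pools. Some 6 h points, among them those of Mal in PMCAO, come from 1 dye.

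The question of the 4 direct comparisons was what PACAP38 did to expression beside saline under the same operation. A probe was counted as up above 1.5-fold and as down below 0.75-fold in the mean of the 2 arrays, the thresholds the study used. At PMCAO 24 h, 3 of 17 member probes were down and 0 up. Those down were the brightest Mobp probe and 2 Mbp probes. Over all probes 8.18% were down and 2.99% were up in this comparison, and the members' share was 17.6%. The members' median was -0.18 on the log2 scale against 0.00 for all probes, with 14 of 17 below 0, while 49.6% of all probes were above 0.

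Mobp carried the largest difference of the members. The brightest probe read -0.65 and -0.94 (log2 PACAP38 over saline) on the 2 arrays of PMCAO 24 h, a mean of -0.79 ± 0.21 (SD of 2 arrays, 1 pool each) or 0.577-fold. On the 2 arrays of sham 24 h it read 0.19 and -0.31, of sham 6 h 0.11 and 0.14, and of PMCAO 6 h 0.24 and -0.03. Thus both PMCAO 24 h arrays lay below all 6 others. The second Mobp probe (A_51_P291224) read -0.29 and -0.19 at PMCAO 24 h and the third (A_52_P267600) -0.16 and -0.21. Both had the same direction as the brightest probe on each array, but a smaller size, and neither passed 0.75-fold. The third probe was also below 0 on both sham 24 h arrays, at -0.21 and -0.34.

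Mbp was the second gene with lower values. Its brightest probe, printed 10 times on the array, read -0.34 and -0.63 at PMCAO 24 h, a mean of -0.48 ± 0.20 (SD of 2 arrays) or 0.716-fold. The 10 spots ranged from -0.42 to -0.17 on the first array and from -0.72 to -0.54 on the second. At sham 24 h the kept spots ranged from -0.06 to 0.07 and from -0.25 to 0.07, which overlaps the first PMCAO array in part of its range. At 6 h the 2 arrays took opposite signs, with 0.14 and -0.19 in sham and 0.34 and -0.21 in PMCAO. A second Mbp probe (A_52_P329451) was below 0.75-fold through 1 array alone, with -0.91 and 0.07. The third (A_52_P604195), which the design linked to a single RefSeq transcript variant, read 0.27 and -0.31, a mean of -0.02.

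Mag followed with smaller values. Its brightest probe read -0.54 and -0.18 at PMCAO 24 h, a mean of -0.36 ± 0.25 (SD of 2 arrays) or 0.780-fold, which is not past the threshold. On the other 6 arrays it read between -0.36 and 0.27, with opposite signs within each comparison. Of the 17 probes, 5 were below saline on both PMCAO 24 h arrays, namely the 3 of Mobp, the brightest of Mbp and the brightest of Mag. The sign differed between arrays for 10, among them Mog (-0.68 and 0.62), Mal (-0.39 and 0.05), Cldn11 (0.05 and -0.32) and Sox10 (0.01 and -0.26). Olig1 (0.26 and 0.09) and the brighter Olig2 probe (0.01 and 0.35) were the 2 above saline on both, and neither mean (0.18 for each) passed 1.5-fold. In either direction the sign thus agreed for 7 of 17 member probes, against 42.5% of all probes.

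In the other comparisons few member probes passed a threshold. At sham 24 h 0 of 17 member probes were up (1.75% of all probes) and 0 down (3.87%), with a median of -0.01. At sham 6 h 0 were up (3.65% of all probes) and 1 was down (7.19%), and at PMCAO 6 h 1 of the 16 with a value was up (5.36%) and 0 down (6.79%). The probe behind both 6 h counts was the dim Sox10 probe. The median was 0.04 at both sham 6 h and PMCAO 6 h. The sign of the members agreed between the 2 arrays for 5 of 13 probes at sham 6 h, 4 of 14 at PMCAO 6 h, 2 of 16 at sham 24 h and 7 of 17 at PMCAO 24 h. Among all probes it agreed for 34.8%, 41.6%, 22.1% and 42.5%.

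**Figure D3:**
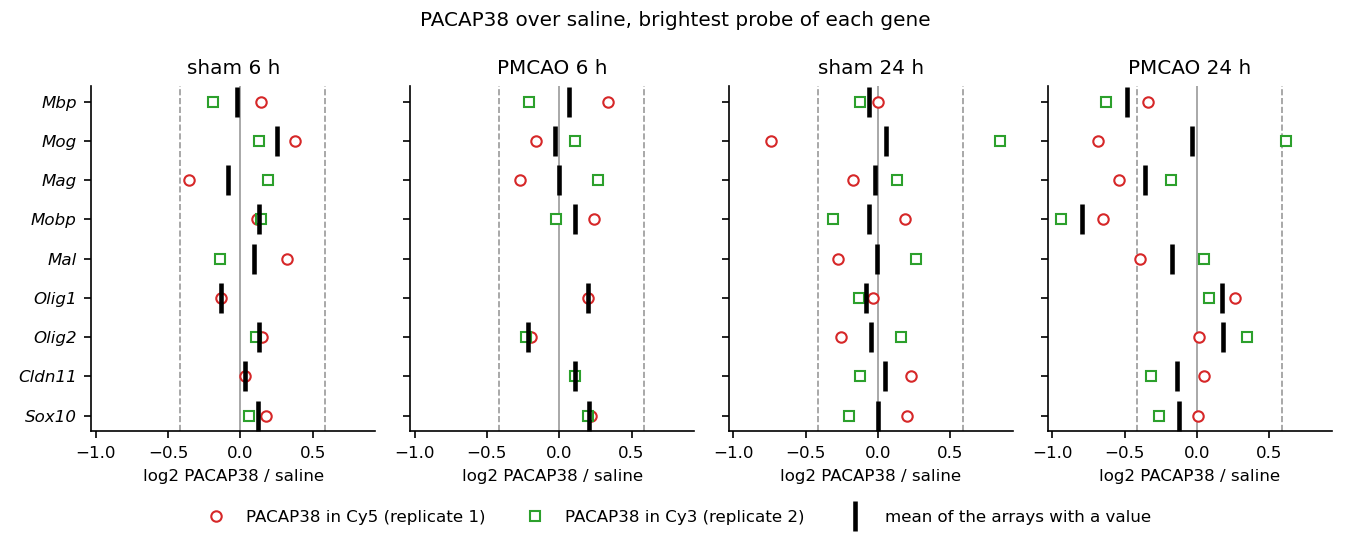
Log2 PACAP38 over saline of the brightest probe of each gene on the 2 dye-swap arrays of each of the 4 comparisons (circles and squares), with their mean as a black bar and the thresholds of 0.75-fold and 1.5-fold as dashed lines. At PMCAO 24 h the brightest Mobp probe lies at -0.65 and -0.94 and the brightest Mbp probe at -0.34 and -0.63, while at sham 24 h the 2 arrays of 8 of the 9 genes have opposite signs.

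Over the 4 comparisons, which are separate pools of separate mice, no member was called for PACAP38 over saline in limma with Benjamini-Hochberg adjustment over all probes. Of 40668 probes 0 were called, or 0.0%, with the smallest adjusted p at 0.872, and 0 of the 16 member probes tested had an unadjusted p under 0.05. At unadjusted p under 0.05 there were 1222 probes higher and 815 lower. The difference of the PACAP38 effect between PMCAO and sham was fitted in the same way over the 2 times, an analysis added after the data were seen, and again 0.0% of probes were called (1263 higher and 957 lower at unadjusted p under 0.05, smallest adjusted p 0.787). The lower Mobp and Mbp values at PMCAO 24 h thus rest on 1 pool against 1 pool, with technical replication only.

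The second question was how the members changed after PMCAO, read as the difference between PMCAO and sham pools in the same dye and at the same time. All probes had a median of 0.19 (saline) and 0.25 (PACAP38) at 6 h and of -0.01 and 0.02 at 24 h, and the members are to be read against these shifts. At 24 h the members' median was 0.01 with saline and -0.16 with PACAP38. With saline 1 probe was up and 2 were down, where 9.1% and 14.4% of all probes were, and with PACAP38 1 was up and 4 were down, where 6.27% and 8.46% were.

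Sox10 was lower after PMCAO at 24 h. The brighter probe read -0.34 and -0.55 with saline in the 2 dyes, a mean of -0.44 or 0.736-fold, and -0.53 and -0.61 with PACAP38, a mean of -0.57 or 0.674-fold. All 4 values were below 0, and under normexp, loess and Aquantile the means were -0.28 and -0.43, so that with saline the probe no longer passed 0.75-fold. The Mbp probe linked to a single transcript variant (A_52_P604195) was lower in the same 4 values, at -0.51 and -0.45 with saline and -0.56 and -0.44 with PACAP38. Under normexp, loess and Aquantile its means were -0.41 and -0.44, and with saline it no longer passed the threshold. A second Mbp probe (A_52_P329451) went the other way, at 0.48 and 0.65 with saline and 0.19 and 0.05 with PACAP38. The brightest Mbp probe read 0.34 and 0.22 with saline and -0.01 and -0.27 with PACAP38. Probes of the same gene therefore did not move together.

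The same held for Mobp. Probe A_52_P267600 read 0.68 and 0.90 with saline at 24 h, a mean of 0.79 or 1.73-fold, and 0.73 and 1.03 with PACAP38, a mean of 0.88 or 1.84-fold. At 6 h its replicate 1 values were 0.66 and 0.85, so it was past 1.5-fold in PMCAO in every one of these pairs. Probe A_51_P291224 read 0.37 and 0.44 with saline at 24 h and 0.27 and 0.11 with PACAP38. The brightest probe, A_52_P384465, read 0.42 and -0.07 with saline and -0.42 and -0.70 with PACAP38, where its mean of -0.56 was 0.679-fold. Under another background correction and normalization (normexp, loess and Aquantile) that mean was -0.30.

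Mag read -0.01 and 0.03 with saline at 24 h and -0.38 and -0.27 with PACAP38. Olig1 read -0.47 and -0.27 with saline and -0.17 and -0.05 with PACAP38, below 0 in all 4 values but with no mean under 0.75-fold. Cldn11 and the brighter Mal probe lay between -0.20 and 0.04 in all their 24 h values. These genes differed by less than 1.5-fold between PMCAO and sham at both treatments.

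**Figure D4:**
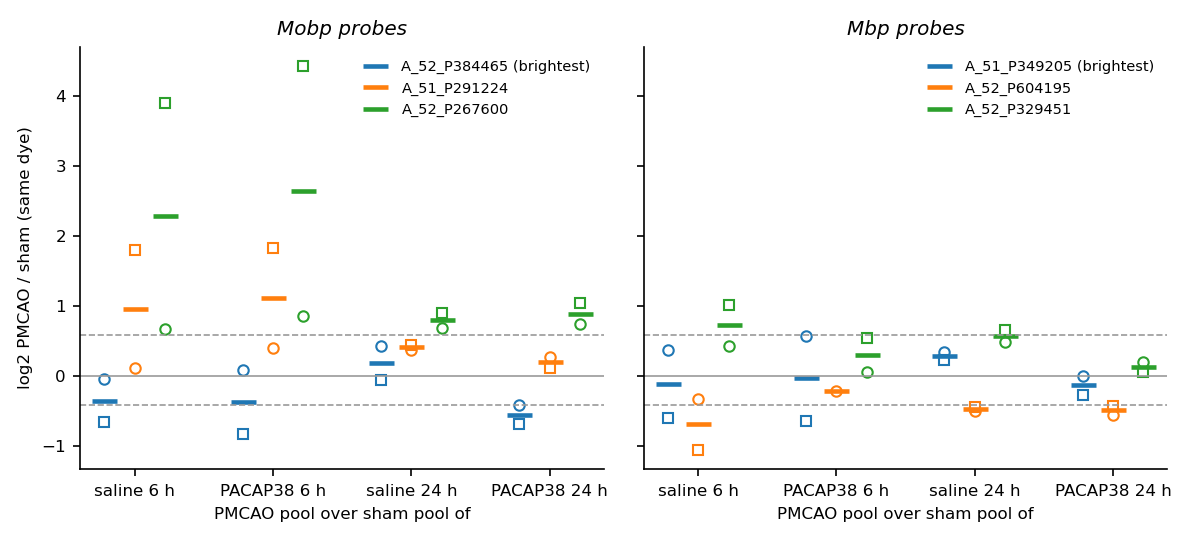
Log2 PMCAO over sham of the 3 Mobp and 3 Mbp probes by treatment and time, with replicate 1 as circles, replicate 2 as squares, their mean as a bar and the thresholds as dashed lines. At 24 h the mean of Mobp A_52_P267600 is 0.79 with saline and 0.88 with PACAP38 and its replicates lie close together, and at 6 h they read 0.66 and 3.89 with saline.

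At 6 h, 6 of 17 member probes were up with saline and 6 with PACAP38, and 2 and 0 were down. Over all probes 29.6% and 28.8% were up, and 22.9% and 15.7% were down. From the replicate 1 arrays alone, which leaves out the sham array that stood apart, 2 were up in each treatment and 0 were down with saline. Mobp A_52_P267600 read 0.66 in replicate 1 and 3.89 in replicate 2 with saline, and 0.85 and 4.42 with PACAP38. Mog read 0.71 and 1.48 with saline and 0.18 and 1.45 with PACAP38, and Mag A_52_P375021 0.28 and 1.49 with saline and 0.45 and 1.25 with PACAP38. In each of these probes the value from the array that stood apart was the higher.

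Across the 4 pairs of pools no member passed limma with Benjamini-Hochberg adjustment over all probes. Of 41098 probes 0 were called (0.0%), with 5298 higher and 3475 lower at unadjusted p under 0.05. The nearest members were Mobp A_52_P267600 at 1.65 ± 0.37 (SE, adjusted p = 0.137), Mbp A_52_P604195 at -0.47 (adjusted p = 0.177), Mobp A_51_P291224 at 0.66 (adjusted p = 0.185) and Mbp A_52_P329451 at 0.42 (adjusted p = 0.216). With the 6 h values from the replicate 1 arrays alone, which leaves out the array that stood apart, these were 0.80 (adjusted p = 0.162), -0.38 (0.219), 0.28 (0.287) and 0.29 (0.314) in the same order, and 0 of 40214 probes were called (4088 higher and 2520 lower at unadjusted p under 0.05). The PACAP38 and saline pools of an operation share arrays, so the 4 pairs are not fully independent. The difference between 24 h and 6 h was called for 6 member probes, all lower at 24 h, where 15.8% of all probes were lower and 6.47% higher. The dim Olig2 probe was among these 6. From the replicate 1 arrays at 6 h, the same test called 0 of 40214 probes (0.0%), with 2044 higher and 5196 lower at unadjusted p under 0.05. With both replicates and a filter on dim probes, it called 5 of 15 member probes, all lower at 24 h. Under that filter 5105 of 24646 probes were lower and 2885 higher.

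Other genes of the oligodendrocyte, from lists of its further proteins, enzymes and factors, were read by the brightest probe of each. Among 12 other structural myelin genes 3 were down with PACAP38 and 0 up at PMCAO 24 h, with a median of -0.11. Over all probes 8.18% were down and 2.99% up. Opalin, a membrane protein of mature oligodendrocytes, read -0.64 and -0.67 on the 2 arrays. Plekhb1, a membrane-associated protein with a pleckstrin homology domain, read -0.47 and -0.50. Cnp, an enzyme of non-compact myelin, read -0.59 and -0.10, which is not past 0.75-fold in the mean. In Opalin and Plekhb1 the 2 arrays lay closer together than in Mobp.

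Lipid and metabolic enzymes of the oligodendrocyte did not pass either threshold with PACAP38 at PMCAO 24 h (0 of 10, median -0.11). Against sham at 6 h, 3 of 10 were up with saline and 5 of 10 with PACAP38, none in both dyes, and 0 were down. Over all probes 29.6% and 28.8% were up at 6 h. Against sham at 24 h, 4 of 10 were down with saline and 5 of 10 with PACAP38, each in both dyes, and none was up, where 14.4% and 8.46% of all probes were down. Ugt8a, which makes galactosylceramide, read -1.46 and -1.44 with saline and -1.52 and -1.43 with PACAP38. Fa2h, the fatty acid 2-hydroxylase of myelin lipids, averaged -0.58 and -0.65, Car2, carbonic anhydrase II, -0.71 and -0.84, Aspa, which hydrolyzes N-acetylaspartate, -0.72 and -0.54, and Qdpr, dihydropteridine reductase, -0.21 and -0.54. Among the structural genes Gpr37 (-0.65 and -0.68), Ermn (-0.47 and -0.49) and Opalin (-0.30 and -1.05) were down in one or both treatments. So several oligodendrocyte genes outside the 9 had larger differences between PMCAO and sham at 24 h than the brightest probes of Mbp, Mag or Cldn11. Among the members, the brighter Sox10 probe (-0.44 and -0.57) and Mobp A_52_P267600 (0.79 and 0.88) had differences as large as some of these genes.

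Genes of earlier stages took other values. Of 8 progenitor genes 2 were up with PACAP38 at PMCAO 24 h and 0 down, with a median of 0.24, where 2.99% of all probes were up and 8.18% down. Against sham at 24 h, 4 of the 8 were down with saline and 1 with PACAP38, where 14.4% and 8.46% of all probes were down. Gpr17, a receptor of cells that are about to differentiate, read 0.76 and 0.56 over saline, and its PMCAO over sham mean was -0.93 with saline and -0.24 with PACAP38. Of 12 lineage factors 0 passed a threshold with PACAP38 at PMCAO 24 h. Against sham, 4 of these 12 were down with saline and 3 with PACAP38 at 24 h, with Hes5, a Notch target that holds back differentiation, at -1.06 and -0.95 with saline in the 2 dyes and a mean of -0.68 with PACAP38.

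Markers of other cells also differed in the PMCAO 24 h comparison, where 8.18% of all probes were down and 2.99% up. Pmp22 and Egr2 of the Schwann cell list averaged -0.74 and -1.47, while Prx and Pmp2 of the same list were well above background in only 9 and 0 of 16 channels. The log2 of the summed level of the 5 genes of that list was 2.84 with saline and 2.00 with PACAP38 after PMCAO at 24 h. Of 6 endothelial genes 4 were down and 1 was up (median -0.45, summed level 4.72 and 4.30). Of 6 striatal genes 3 were up (median 0.55, summed level 3.17 and 3.85), and of 3 raphe genes 2 were down (median -0.59, summed level -1.13 and -1.82). Of 9 genes of the acute ischemic response 9 were down on both arrays (median -1.24, summed level 6.44 and 5.27). Neuronal and astrocyte genes had 0 of 8 and 0 of 7 past a threshold, and microglial genes 1 of 7 down. The summed level of the 9 members was 7.17 with saline and 6.76 with PACAP38. The part of these other cells in the Mobp and Mbp values was not tested.

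**Figure D5:**
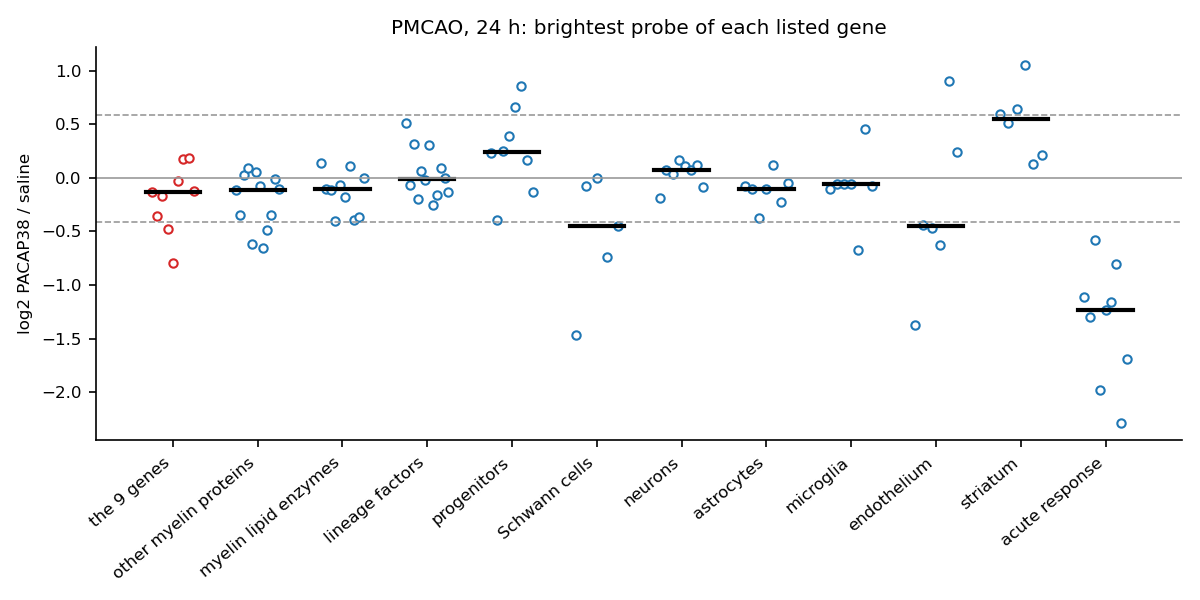
Log2 PACAP38 over saline at PMCAO 24 h for each gene of the lists, as the mean of the 2 arrays (points), by list, with the list's median as a bar and the thresholds as dashed lines. The 9 members range from -0.79 to 0.18, the acute response genes all lie at -0.58 or below, and the striatal genes lie above 0.

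The genes whose levels followed the members most closely were sought over the 8 pools, after the mean of the 4 pools of each time was taken off. Among 15987 genes the 10 highest were Qdpr (Pearson r = 0.995), Cdc42ep2 (0.990), AK080016 (0.982), Chst11 (0.981), Pcbp3 (0.969), Ramp3 (0.968), Rarres2 (0.967), Zfp365 (0.966), Dad1 (0.966) and Reep3 (0.966). These values describe 8 pools that share arrays in pairs, and they include the array that stood apart. The members themselves differed in how closely they tracked the mean of the others, from 0.93 for Mag, 0.78 for Sox10, 0.73 for Mal and 0.72 for Mog to 0.24 for Olig2, 0.19 for Olig1, -0.01 for Mbp, -0.10 for Cldn11 and -0.18 for Mobp. The 9 genes were thus not 1 block over these pools.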

How the data were processed

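The 8 two-colour Agilent whole mouse genome arrays were analysed, 1 pair of dye-swapped arrays per comparison. The authors pooled 900 ng of total RNA per group (300 ng from each of 3 mice), and scanned images were read with Agilent Feature Extraction 9.5.3.1 per the submitters' processing notes. Per the file headers this version read the 24 h arrays, and version 9.5.1.1 the 6 h arrays. The deposited scanner files hold intensity values (background-subtracted, dye-normalized processed signals and mean signals), Agilent's log10 ratio of Cy5 over Cy3, and other flags (outlier, well above background, saturated). The deposited value table holds a linear ratio, Cy5 over Cy3, to which the authors gave a minus sign on arrays with PACAP38 in Cy3, and so it was read as a score.

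Log ratios were converted to log2, turned to PACAP38 over saline and averaged over spots without outlier flags, then over the 2 arrays. For PMCAO over sham, log2 processed signals minus the 75th percentile of the channel were subtracted within a dye. The study's thresholds (above 1.5-fold, below 0.75-fold) were used for single comparisons, which have no test. Fits over 4 values used limma 3.58.1 in R 4.3.3, with Benjamini-Hochberg adjustment over all probes at 0.05. Tables were made with Python 3.11.15, pandas 2.3.3 and numpy 2.4.6. On simulated data the PACAP38 fit recovered 63 of 100 probes changed 2-fold and 84 of 100 changed 4-fold among 40668, with 10 false calls, and the PMCAO fit 24 of 100 and 74 of 100 among 41098, with 5 false calls. The changed probes were drawn from those with a standard deviation below its 75th percentile, so the recovered counts leave out the most variable probes. The noise was independent for each of the 4 values, whereas the real PMCAO pairs share arrays. The p-values of the PACAP38 and PMCAO fits measure the spread between 4 pairs of pools. Those of the difference between 24 h and 6 h measure the spread between the saline and PACAP38 pairs of a time, which share arrays. The fit of the difference in PACAP38 effect between PMCAO and sham rests on the 2 times alone. The number of arrays limits the precision.

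All probes of the 9 genes are counted, and each is named or given as the brightest or only probe of its gene. Of the other lists, genes past a threshold on both arrays or with an adjusted p under 0.05 are named, at most 5 per list and comparison, and Cnp, Hes5, Pmp22, Prx and Pmp2 were named after their values were seen where they fall outside this. Some listed genes are not reported here. A further 10 genes are named for likeness. The members and lists were chosen with earlier results of these data known. Probe names are those of the array design, and 22951 probes matched RefSeq by accession. Alternatives were background correction and normalization (normexp with an offset of 50, loess, Aquantile), median scaling, outlier spots kept, single dyes or arrays, a filter on dim probes, the value table, and other blocks.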

Additional observations from a re-analysis of the deposited data

Results flagged for a closer look

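The change after PMCAO differed between 24 h and 6 h for 6 member probes in limma (Benjamini-Hochberg over 41098 probes), each lower at 24 h. By the same fit 15.8% of all probes were lower at 24 h and 6.47% were higher. Mobp A_52_P267600 differed by -1.62 on the log2 scale (adjusted p = 0.0181), and by 0.08 when the 6 h values came from the replicate 1 arrays alone. Mobp A_51_P291224 differed by -0.73 (adjusted p = 0.0486), and by 0.04 from replicate 1 alone. Mog differed by -1.16 (adjusted p = 0.0236), and by -0.65 from replicate 1 alone. Mag A_52_P375021 differed by -0.88 (adjusted p = 0.0379), and by -0.38 from replicate 1 alone. Sox10 A_51_P346704 differed by -0.81 (adjusted p = 0.0334), and by -0.35 from replicate 1 alone. The dim Olig2 probe differed by -0.96 (adjusted p = 0.0484), and by -0.95 from replicate 1 alone. With replicate 1 alone at 6 h, 0 probes passed. The pools of a time share arrays, so these p-values are too small, and time cannot be told apart from slide, scanner or software version.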

How the results depend on the processing

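The call counts of member probes were small and moved with single arrays. For PACAP38 over saline, a single array gave from 0 to 1 probes below 0.75-fold at sham 6 h (1 in the mean), from 0 to 1 above 1.5-fold at PMCAO 6 h (1), from 0 to 4 above and from 0 to 5 below at sham 24 h (0 and 0), and from 0 to 1 above and from 2 to 6 below at PMCAO 24 h (0 and 3). Asking for both arrays, or for a threshold of 1.5-fold either way, left 1 probe below at PMCAO 24 h and 0 at sham 6 h. Asking for both arrays, or normexp and loess, left 0 above at PMCAO 6 h, and normexp and loess also left 0 below at sham 6 h. The Mbp probe A_52_P329451 read -0.91 or 0.074 at PMCAO 24 h by array, and the dim Sox10 probe -1.29 or 0.13 at sham 6 h.

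For PMCAO over sham with saline at 6 h, 2 probes were above 1.5-fold in Cy3 or replicate 1 alone (6 in the mean). Below 0.75-fold there were 1 under normexp, loess and Aquantile, 0 in Cy3 or replicate 1 alone and 4 in Cy5 (2). With PACAP38 at 6 h, 2 were above in Cy5 or replicate 1 alone (6), and 1 was below under median scaling, 1 with outlier spots kept and 2 in Cy3 (0). With saline at 24 h, 2 were above in Cy5 and 3 with outlier spots kept (1), and 0 below under normexp, loess and Aquantile (2). With PACAP38 at 24 h, 2 were above with outlier spots kept (1) and 2 below under normexp, loess and Aquantile (4), and the dim Olig2 probe read 0.11 in Cy5 alone. From replicate 1 alone at 6 h, 0 members (6 with both) were called between 24 h and 6 h, and Mobp A_51_P291224 read 0.042 and A_52_P267600 0.081. The cause of these moves was not tested.

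With the labels' numbers taken as separate pools, each dye's difference was entered as an independent value, with no block term. For PMCAO over sham this fit called 1733 of 36121 probes but 0 of 12 member probes. Per the study's methods the dye-swapped arrays carry RNA of the same pools, so the p-values of this fit are too small. Without pairing by treatment and time 76 probes were called, and 31 with a filter on dim probes, again with 0 members. The 8 arrays and the 1 pool per group limit what these data can resolve.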
